A study of Homo sapiens with 12 samples.

Results

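Expression of the nuclear-encoded complex I genes was followed across CO2 levels and an inflammatory stimulus in THP-1 cells, an established line derived from a human monocytic leukaemia. The genes were chosen by name: protein-coding genes whose current symbol begins with NDUF. Of 57500 gene identifiers in each count table, 48 met this rule. The low-count filter kept 47 of them among 16402 genes tested. The exception was NDUFC2-KCTD14, a readthrough transcript of neighbouring genes, with 9 counts in all 12 libraries (3 at 5% CO2, 4 at 10% CO2, and 1 in each LPS group). The set holds 7 core subunits, the accessory subunits, 8 assembly factors named NDUFAF and NDUFAB1, the mitochondrial acyl carrier protein. NDUFA4 and NDUFA4L2 carry the old NDUF prefix, although NDUFA4 is now regarded as a subunit of complex IV. Leaving both out gave the same numbers of called genes in each comparison described below.

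Complex I, or NADH:ubiquinone oxidoreductase, is the entry point of electrons from NADH into the mitochondrial respiratory chain and pumps protons across the inner membrane. Its matrix arm consists of the N module, which binds and oxidises NADH, and the Q module, which passes electrons to ubiquinone. Its membrane arm carries the proton channels, whose central subunits are encoded by mitochondrial DNA and are surrounded by nuclear-encoded accessory subunits grouped here as the ND1, ND2, ND4 and ND5 modules. Assembly factors help to build the complex and are absent from the finished enzyme. In activated monocytes and macrophages, complex I is also known as a source of reactive oxygen species.

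All cells carried a lentiviral non-target shRNA, and the line is a single leukaemia line, so no primary monocytes were represented. Cells were held for 4 h in buffered DMEM medium at 5% CO2 (normocapnia) or 10% CO2 (hypercapnia). At each CO2 level, one group also received 2.5 µg/ml LPS, the outer-membrane glycolipid of Gram-negative bacteria that TLR4 senses, over the final 2 h. Each of the 4 groups had 3 libraries, made from poly(A)-selected RNA. The labels do not tie the replicates to separate cultures, and each p-value therefore reflects the spread among these libraries, which may be technical.

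Library totals lay between 17.1 and 22.2 M counts, and 3 counts in a library corresponded to between 0.135 and 0.175 CPM (counts scaled to a common library size). All 9 monocyte markers were tested, and their summed level was 1320 to 1680 CPM at 5% CO2, 1320 to 1430 at 10% CO2, 1030 to 1260 at 5% CO2 with LPS and 913 to 1080 at 10% CO2 with LPS. The sums with LPS lay below those without it at both CO2 levels. By gene, 0 were higher and 2 lower for CO2 with LPS, 2 higher and 2 lower for LPS at 5% CO2, and 2 higher and 3 lower for LPS at 10% CO2. Of all genes tested, 4.29% were called higher and 4.46% lower, 11.8% and 13.1%, and 16.6% and 18.6% in the same order. For CO2 averaged over LPS, 1 of the 9 monocyte markers was higher (11.1%) and 2 lower (22.2%), beside 8.06% and 8.69% of all genes. Summed fibroblast markers (3 of 5 tested) were 2.15 to 2.89 CPM at 5% CO2, 1.62 to 2.21 at 10% CO2, 3.0 to 3.69 at 5% CO2 with LPS and 3.23 to 4.01 at 10% CO2 with LPS, without overlap at either CO2 level. Of the other markers, 4 of 5 T cell genes and all 4 epithelial genes failed the filter. Summed T cell marker levels ranged from 1.67 to 1.93 CPM at 5% CO2, from 0.751 to 1.27 at 10% CO2, from 1.56 to 2.22 at 5% CO2 with LPS and from 0.837 to 1.06 at 10% CO2 with LPS. These T cell sums did not overlap between the CO2 levels, with or without LPS. The 1 T cell gene tested was called lower for CO2 with LPS (log2 difference -1.43) and averaged over LPS (-1.10). Of all genes, 4.46% and 8.69% were called lower. Summed B cell markers (3 of 4 tested) were 14.5 to 20.4 CPM at 5% CO2 and 16.3 to 20.1 at 10% CO2. With LPS they were 13.9 to 19.4 and 13.4 to 16.4 CPM. The B cell factor PAX5 was present at a mean of 13.9 CPM. The part of these marker levels in the results was not tested. The share of counts from mitochondrial genes moved with CO2. It was 1.31% to 1.96% at 5% CO2, 2.01% to 3.05% at 10% CO2, 1.28% to 1.78% at 5% CO2 with LPS and 2.28% to 4.15% at 10% CO2 with LPS. Replicates 1 and 3 at 10% CO2 stood farthest apart within a group, with a chi-square per degree of freedom of 27.8 against 8.39 to 14.96 for the other pairs. In bulk RNA, fewer cells and less RNA per cell cannot be told apart.

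The NDUF genes together took 0.252% ± 0.0065 of counts at 5% CO2 and 0.266% ± 0.0201 at 10% CO2 (SD, n = 3). With LPS, the shares were 0.241% ± 0.0163 at 5% CO2 and 0.252% ± 0.0084 at 10% CO2. These ranges overlapped between all 4 groups. Per kilobase of exon, the 47 tested genes covered 0.542 to 191 RPKM (CPM divided by exon length in kilobases), with a median of 13.4 against 3.43 for all genes tested. The 37 complex I subunits had a median of 21.7 and the 8 assembly factors a median of 10.1 on this scale. Exon length here is the union of all annotated exons, which lowers values for genes with long alternative models.

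NDUFS5, an accessory subunit of the proximal membrane arm, had the highest level per length, at 191 RPKM (169.7 to 218.4 over 12 libraries). Its levels per library were 99.0, 97.2 and 93.0 at 5% CO2, 94.1, 106.2 and 98.6 at 10% CO2, 101.2, 108.3 and 114.0 at 5% CO2 with LPS, and 113.0, 119.7 and 112.8 CPM at 10% CO2 with LPS. The 2 levels next in order, 96.1 for NDUFS6 and 95.2 for NDUFB7, had overlapping ranges over libraries, and both ranges lay below that of NDUFS5. NDUFAF5, which hydroxylates an arginine of the core subunit NDUFS7, had the lowest level, 0.542. Its levels per library were 3.80, 4.47 and 3.81 at 5% CO2, 5.51, 4.87 and 3.66 at 10% CO2, 3.74, 3.46 and 3.20 at 5% CO2 with LPS, and 3.49, 3.59 and 3.39 CPM at 10% CO2 with LPS. NDUFAF5 was thus measured from only 941 counts over all libraries. Among the 7 core subunits the median level per length was 9.03, and the lowest was 6.98 for NDUFS7, an iron-sulfur subunit of the Q module.

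**Figure D1:**
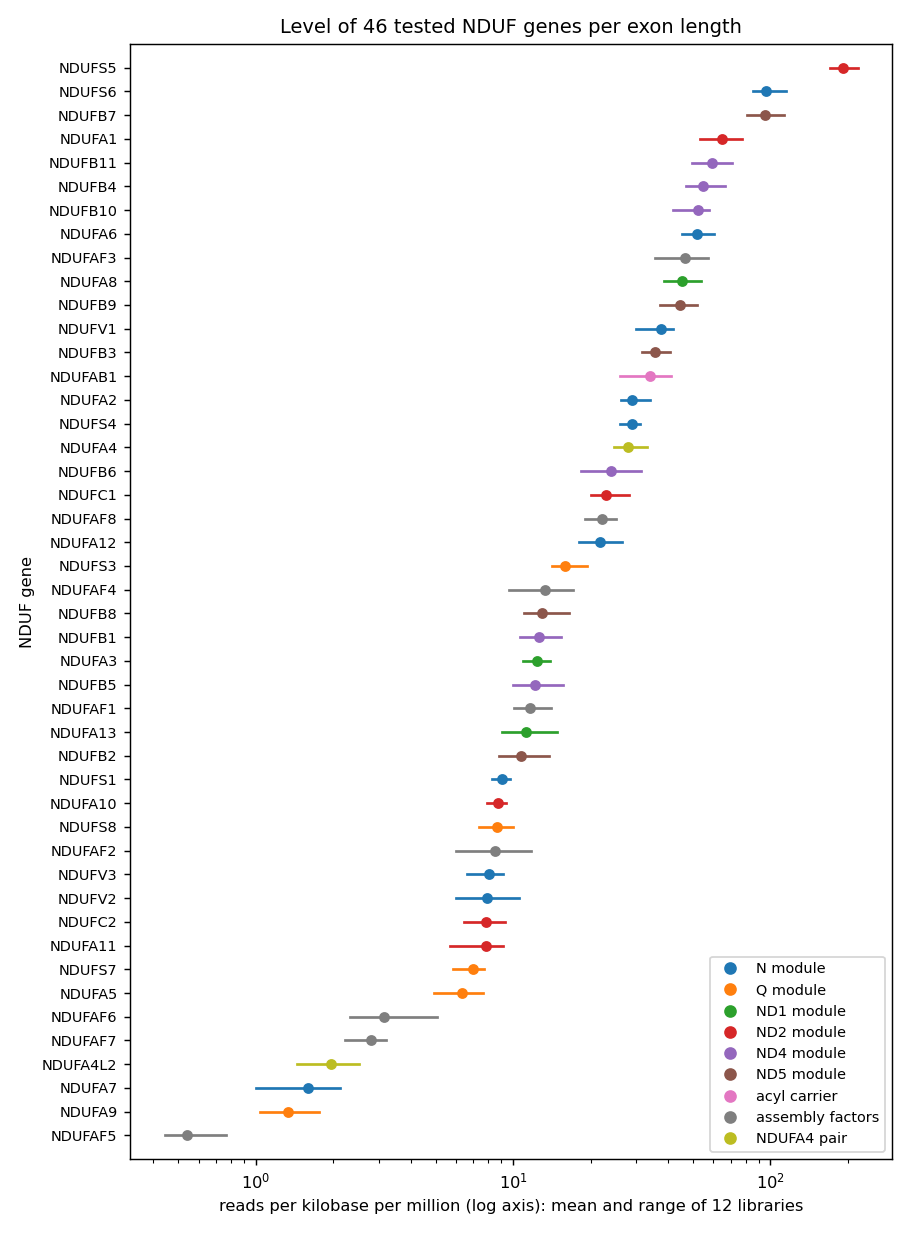
Level of 46 tested NDUF genes in RPKM, the CPM per kilobase of exon (log axis), with points at the mean and lines from the lowest to the highest of 12 libraries, coloured by module. NDUFS5 lies at the top at 191 and NDUFAF5 at the bottom at 0.542, and neighbouring genes in the order mostly have overlapping ranges.

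Raising CO2 from 5% to 10% without LPS gave no NDUF gene that passed the test. At a Benjamini-Hochberg adjusted p under 0.05 in edgeR's quasi-likelihood test over all genes, 0 of 47 were higher and 0 lower, where 0.799% of all genes tested were called higher and 0.665% lower. At an unadjusted p under 0.05, 6 were higher and 0 lower, beside 1405 and 1457 of all 16402 genes. DESeq2 called 1 gene higher, NDUFAF4, beside 290 of all genes. The fitted log2 change was above 0 for 37 genes and below 0 for 10, with a median of 0.11 against -0.01 over all genes tested. In 9 genes the 3 libraries at 10% CO2 were all above the 3 at 5% CO2 and in 0 genes all below, where 10.5% and 10.2% of all genes showed such a separation.

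The smallest p-values belonged to assembly factors. NDUFAF4, which works with NDUFAF3 on an early membrane-bound intermediate, had 28.6, 24.4 and 28.0 CPM at 5% CO2 and 40.5, 38.6 and 31.2 CPM at 10% CO2. The groups did not overlap, and replicate 3 was the lowest at 10% CO2. The log2 difference was 0.44 ± 0.11 (SE) with an adjusted p of 0.0578, and 0.0213 without replicate 3 of 10% CO2. Of the 12 fits that left out a library, this was the 1 in which NDUFAF4 was called. Without replicate 2 of 10% CO2, 0 of 16885 genes tested were called in either direction. NDUFAF2, a paralogue of the N module subunit NDUFA12 that associates with a late intermediate, had 6.51, 7.94 and 6.08 CPM at 5% CO2 and 9.93, 9.94 and 8.79 CPM at 10% CO2. Each 10% CO2 library was above each 5% CO2 library, by a log2 difference of 0.48 ± 0.14 (adjusted p = 0.0850). With a correction for GC content, the adjusted p was 0.0114 for NDUFAF4 and 0.0473 for NDUFAF2.

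On the lower side, the smallest p-values were those of NDUFAF7 and NDUFS1. NDUFAF7, an arginine methyltransferase that acts in complex I assembly, had 11.2, 10.7 and 10.6 CPM at 5% CO2 and 11.7, 9.58 and 8.12 CPM at 10% CO2. The groups overlapped, with a log2 difference of -0.15 ± 0.13 (adjusted p = 0.591). NDUFS1, the largest core subunit and a carrier of iron-sulfur clusters, had 119.5, 104.5 and 119.4 CPM at 5% CO2 and 115.5, 109.3 and 101.5 CPM at 10% CO2. The groups overlapped here too, and the 95% interval of the log2 difference ran from -0.26 to 0.11.

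With LPS present, 2 of 47 NDUF genes were higher at 10% than at 5% CO2 and 0 lower, a share of 4.26% where 4.29% of all genes tested were called higher and 4.46% lower. NDUFAF2 rose from 6.81, 7.65 and 7.87 CPM to 10.2, 11.9 and 9.93 CPM, again without overlap, a log2 change of 0.52 ± 0.14 (adjusted p = 0.0287). NDUFB2, an accessory subunit of the distal membrane arm, rose from 43.3, 41.0 and 47.5 CPM to 54.1, 61.3 and 51.6 CPM, a log2 change of 0.34 ± 0.10 (adjusted p = 0.0450). The groups did not overlap in either gene. The NDUFAF2 call was lost without replicate 1 or 2 of 5% CO2 with LPS or replicate 2 of 10% CO2 with LPS, with adjusted p of 0.0779 to 0.151. The NDUFB2 call was lost on leaving out any one of 8 libraries (up to 0.220), and 27.9% of its exon bases lie opposite BRAF. The number of genes called higher was 0 without replicate 1 or 2 of 5% CO2 with LPS or replicate 2 of 10% CO2 with LPS, and 7, 5 and 4 without replicate 3 of 5% CO2 with LPS and replicates 1 and 3 of 10% CO2. It was 1 without replicate 1 of 5% CO2, replicate 2 of 10% CO2 or replicate 1 or 3 of 10% CO2 with LPS.

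Several other genes lay near the threshold in cells with LPS. NDUFAB1, which also serves mitochondrial fatty acid synthesis, had 45.6, 46.0 and 57.9 CPM at 5% CO2 with LPS and 61.5, 65.9 and 62.3 CPM at 10% CO2 with LPS (log2 difference 0.34 ± 0.11, adjusted p = 0.0505). The 5% CO2 library at 57.9 CPM stood closest to the 10% CO2 libraries, and the groups did not overlap. NDUFAF4 had 29.7, 29.9 and 34.5 CPM against 41.5, 43.3 and 36.6 CPM, with no overlap and an adjusted p of 0.0524. Over the 47 genes, 38 had a log2 difference above 0 and 9 below, with a median of 0.11 against -0.01 for all genes tested. In 13 genes all 10% CO2 libraries were above all 5% CO2 libraries and in 0 all below, against 16.2% and 15.2% of all genes. By DESeq2 5 genes were higher and 0 lower, beside 928 and 878 of all 16402 genes. At an unadjusted p under 0.05 in edgeR 10 were higher and 0 lower, beside 1995 and 2088 of all genes.

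**Figure D2:**
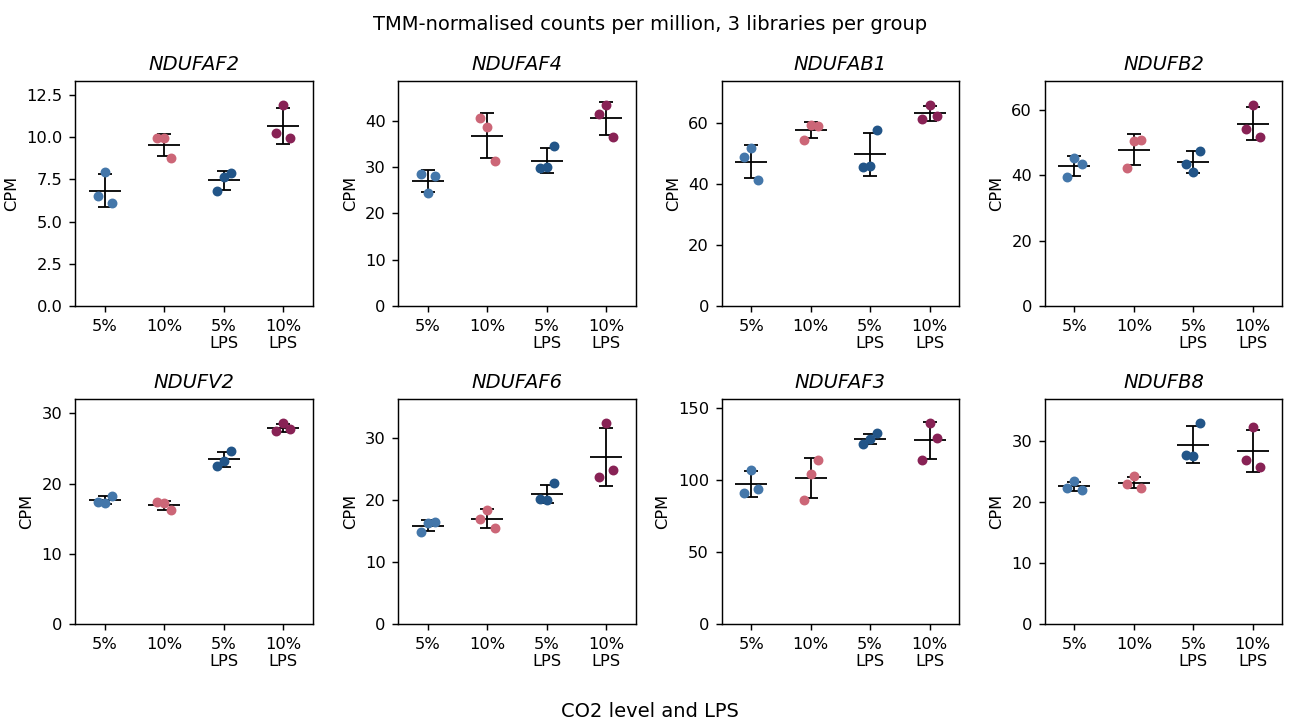
TMM-normalised CPM of 8 NDUF genes in each library, by CO2 level and LPS, with bars at the group mean and whiskers of 1 SD (n = 3). NDUFAF2 and NDUFAF4 sit higher at 10% CO2 with and without LPS, and NDUFV2 and NDUFAF6 sit higher with LPS at both CO2 levels.

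Averaged over the LPS conditions, which uses all 12 libraries, 8 of 47 NDUF genes were higher at 10% CO2 and 0 lower, 17.0% of the set, where 8.06% of all genes tested were called higher and 8.69% lower. Among the assembly factors, NDUFAF2 rose by 0.50 ± 0.10 on the log2 scale (adjusted p = 0.00282) and NDUFAF4 by 0.40 ± 0.08 (adjusted p = 0.00285). NDUFAB1 rose by 0.31 ± 0.07 (adjusted p = 0.00896). These 3 calls held in every alternative fit that was run. DESeq2 also called 8 higher and 0 lower, beside 1487 and 1511 of all 16402 genes. At an unadjusted p under 0.05 in edgeR 14 were higher and 0 lower, beside 2447 and 2690 of all genes.

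The other 5 genes called on the average of both LPS conditions were accessory subunits, and 4 of them belong to the membrane arm. In the tested set, the ND1, ND2, ND4 and ND5 modules of that arm hold 3, 6, 6 and 5 genes. The N and Q modules hold 10 and 6, core subunits among them. NDUFB2 of the ND5 module rose by 0.25 ± 0.07 (adjusted p = 0.0234). NDUFB6 and NDUFB5 of the ND4 module rose by 0.28 ± 0.08 (adjusted p = 0.0237) and 0.24 ± 0.07 (adjusted p = 0.0258). NDUFA8, an intermembrane-space subunit of the ND1 module, rose by 0.22 ± 0.07 (adjusted p = 0.0449). The fifth, NDUFS6, is a zinc-binding subunit of the N module and rose by 0.18 ± 0.06 (adjusted p = 0.0456). Each of these 5 calls was lost in between 4 and 9 of the 12 fits that left out a library, and the count of genes called ranged from 3 to 10. It was 3 without replicate 1 of 5% CO2, replicate 1 of 5% CO2 with LPS, or replicate 2 of 10% CO2 with or without LPS, 4 without replicate 2 of 5% CO2 with LPS and 5 without replicate 2 of 5% CO2. A correction for GC content gave 14 NDUF genes called higher, where it raised the count over all genes from 1322 to 1853. The mitochondrial share of counts moved with CO2 as given above. The part of GC content or of the mitochondrial share in these calls was not tested further.

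The core subunits gave no call for CO2. Of the 7, 0 passed the test without LPS, with LPS or on the average, with medians of -0.06, -0.01 and -0.03. Of all genes tested, 0.799%, 4.29% and 8.06% were called higher and 0.665%, 4.46% and 8.69% lower. With only 7 genes, a count of 0 does not set the core subunits apart from these shares. The 95% intervals of the 7 averaged differences all lay between -0.25 and 0.25 on the log2 scale. By module, the median averaged difference was 0.10 in the N module (10 genes), 0.04 in the Q module (6 genes), 0.05 in the ND1 module (3 genes), 0.11 in the ND2 module (6 genes), 0.17 in the ND4 module (6 genes), 0.13 in the ND5 module (5 genes) and 0.15 in the NDUFAF group (8 genes). The modules were not tested against each other.

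**Figure D3:**
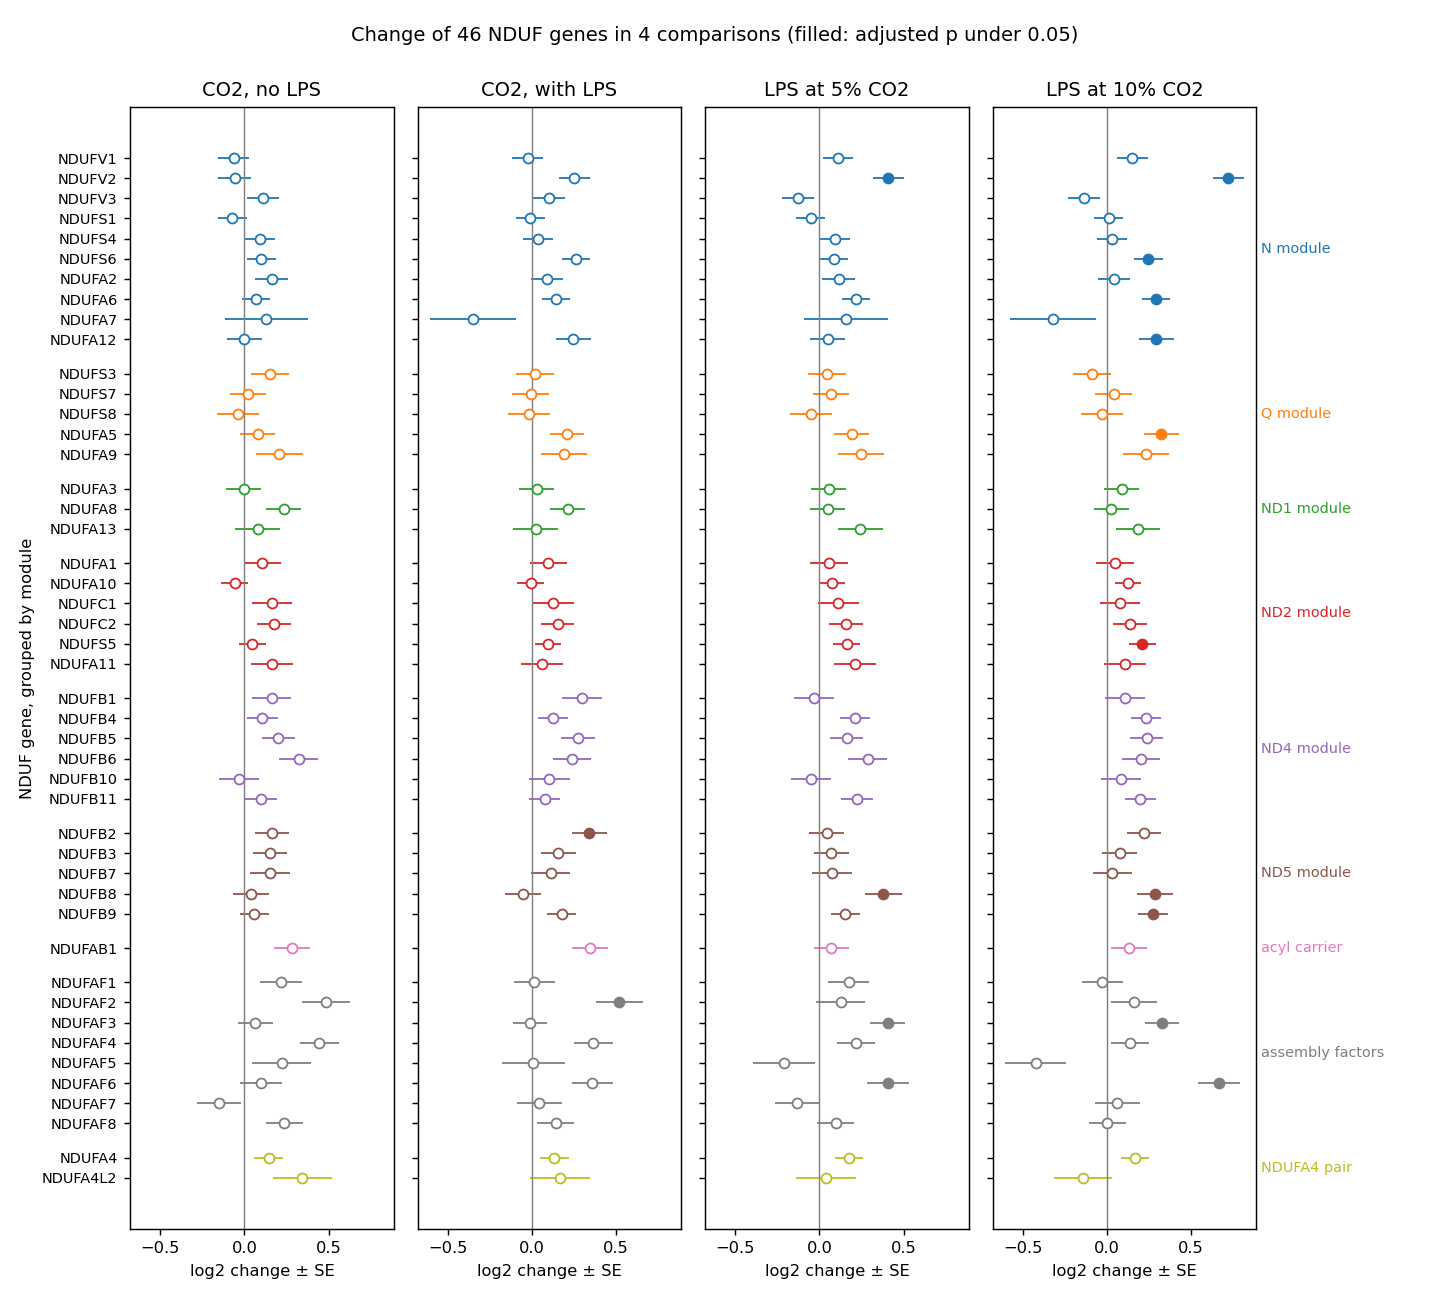
Log2 change with its SE (horizontal lines) for 46 NDUF genes in 4 comparisons, ordered by module, with filled points for an adjusted p under 0.05. No point is filled for CO2 without LPS, 2 are filled for CO2 with LPS, 4 for LPS at 5% CO2 and 10 for LPS at 10% CO2.

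The DNA upstream of the 3 genes whose averaged CO2 call held in every fit is shown so that the letters can be read beside the change. Each line is the longest run, within the 250 bases before the RefSeq start (GRCh38.p14), that lies outside every exon of the count tables and of GENCODE release 44. The NDUFAF2 stretch is chr5:60945074-60945128 (plus strand), a gap of 55 bases left between the first exon of NDUFAF2 and that of ERCC8, a DNA repair gene that starts 56 bases away and is read in the opposite direction. The NDUFAF4 stretch is chr6:96897892-96898141 (minus strand). The NDUFAB1 stretch is chr16:23596357-23596566 (minus strand). Capitals mark the 7 letters CCGGAAG, a core recognised by ETS factors such as GABPA, which occur in the NDUFAF4 stretch and in neither of the others.
NDUFAF2: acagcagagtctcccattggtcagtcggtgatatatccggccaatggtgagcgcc
NDUFAF4: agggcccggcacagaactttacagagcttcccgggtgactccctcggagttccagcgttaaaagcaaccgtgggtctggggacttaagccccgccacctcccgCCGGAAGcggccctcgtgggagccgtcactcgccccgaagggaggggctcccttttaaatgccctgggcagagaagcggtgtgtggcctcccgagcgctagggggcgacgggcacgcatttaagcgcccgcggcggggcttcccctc
NDUFAB1: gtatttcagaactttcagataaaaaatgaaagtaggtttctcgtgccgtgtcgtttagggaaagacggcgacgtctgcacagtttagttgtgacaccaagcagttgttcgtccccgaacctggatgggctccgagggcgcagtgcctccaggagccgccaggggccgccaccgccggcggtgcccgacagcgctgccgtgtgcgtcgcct

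The GC content of these stretches was 56.4%, 67.2% and 59.5%. ERCC8, the divergent neighbour of NDUFAF2, had log2 differences for CO2 of 0.05 (adjusted p = 0.906) without LPS and 0.33 (adjusted p = 0.149) with LPS, beside 0.48 and 0.52 for NDUFAF2.

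LPS at 5% CO2 raised 4 NDUF genes and lowered 0 by edgeR. DESeq2 gave 5 and 0, beside 2102 and 2023 of all 16402 genes. At an unadjusted p under 0.05 in edgeR 8 were higher and 0 lower, beside 2696 and 3084 of all genes. The edgeR rises were 8.51% of the set, where 11.8% of all genes tested were called higher and 13.1% lower. NDUFV2, a core iron-sulfur subunit of the N module, rose from 17.4, 17.3 and 18.3 CPM to 22.5, 23.2 and 24.6 CPM. Its groups did not overlap, and the log2 change was 0.41 ± 0.09 (adjusted p = 0.00302). NDUFAF3, the partner of NDUFAF4, rose from 90.7, 107.2 and 93.4 CPM to 125.2, 128.1 and 132.3 CPM, without overlap (0.40 ± 0.10, adjusted p = 0.00637).

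NDUFB8, an accessory subunit of the distal membrane arm, rose from 22.4, 23.4 and 22.1 CPM to 27.7, 27.6 and 33.0 CPM (0.38 ± 0.11, adjusted p = 0.0131). Replicate 3 with LPS was the highest, and without it the adjusted p was 0.0903. NDUFAF6, an assembly factor for the membrane arm around ND1, rose from 14.9, 16.3 and 16.5 CPM to 20.3, 20.1 and 22.8 CPM (0.41 ± 0.12, adjusted p = 0.0215). The NDUFAF6 groups did not overlap, and its call was lost without replicate 1 of 5% CO2 (0.0881) or replicate 3 of 5% CO2 with LPS (0.0991). Without this last library, 2 NDUF genes were called in place of 4, and 1476 of all genes were higher in place of 1940. Over the 47 genes, 39 log2 changes were above 0 and 8 below, with a median of 0.11 against -0.01 for all genes tested. With a correction for exon length the median was 0.03, and the median exon length was 2475 bases for the NDUF genes against 4350 over all genes tested. In 14 genes the LPS libraries were all above and in 3 all below, against 18.9% and 20.4% of all genes.

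LPS at 10% CO2 raised 10 NDUF genes and lowered 1, that is 21.3% and 2.13% of the set, where 16.6% of all genes tested were called higher and 18.6% lower. NDUFV2 rose from 17.4, 17.2 and 16.2 CPM to 27.5, 28.6 and 27.7 CPM. The lowest LPS library was well above the highest without LPS, and the log2 change was 0.72 ± 0.09 (adjusted p = 6.36e-06). NDUFAF6 rose from 17.0, 18.5 and 15.5 CPM to 23.7, 32.4 and 24.9 CPM (0.67 ± 0.12, adjusted p = 0.000299). Replicate 2 with LPS was the highest NDUFAF6 library, and the call held without it. Both calls held in every alternative fit that was run.

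NDUFA6, an N module subunit of the LYR family that binds the acyl carrier protein, rose from 64.9, 73.6 and 67.5 CPM to 85.1, 84.6 and 82.4 CPM (0.29 ± 0.08, adjusted p = 0.00987). The NDUFA6 call was lost without the low-count filter (adjusted p = 0.072) and held in the other fits. NDUFAF3 rose from 86.4, 104.4 and 113.7 CPM to 114.1, 139.2 and 129.0 CPM (0.33 ± 0.10, adjusted p = 0.0176). The NDUFAF3 groups touched closely, with 113.7 CPM as the highest library without LPS and 114.1 CPM as the lowest with it. The NDUFAF3 call was lost without replicate 1 of 10% CO2 (0.0824) or replicate 2 or 3 of 10% CO2 with LPS (0.0883 and 0.0521). The other 6 genes that rose were NDUFB9, another LYR subunit (0.27, adjusted p = 0.0192), NDUFA5 of the Q module (0.32, adjusted p = 0.0195), NDUFS6 (0.25, adjusted p = 0.0307), NDUFA12 (0.29, adjusted p = 0.0333), NDUFB8 (0.29, adjusted p = 0.0440) and NDUFS5 (0.21, adjusted p = 0.0478). Leaving out 1 library at a time, these calls were lost in 11 of 12 fits for NDUFS5, 8 for NDUFB8, 5 for NDUFA12, 4 for NDUFS6, and 2 each for NDUFB9 and NDUFA5, with adjusted p up to 0.2297. NDUFS5 had a log2 change of 0.075 (adjusted p = 0.494) with the length correction, and NDUFA5 one of 0.10 (adjusted p = 0.341) with the GC correction. The GC correction also gave adjusted p of 0.131 for NDUFA12, 0.0880 for NDUFB9 and 0.173 for NDUFS5. The length correction gave 0.100 for NDUFA12, 0.0934 for NDUFB8 and 0.0997 for NDUFS6. Each of these 6 calls was thus lost with 1 or both corrections.

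NDUFAF5 was the one gene with every LPS library below every library without LPS at 10% CO2, but its log2 difference of -0.42 ± 0.18 did not pass the test (adjusted p = 0.0781). Over the 47 genes, 39 log2 changes were above 0 and 8 below, and in 15 genes the LPS libraries were all above, against 21.9% and 24.2% of all genes that were fully above or below. The median log2 change was 0.13 against -0.02 for all genes tested, and 0.07 with the length correction. The count of NDUF genes called higher was 4 without replicate 1 of 10% CO2, 6 without replicate 3 of 10% CO2, and 5 and 4 without replicates 1 and 2 of 10% CO2 with LPS. Of all genes, 2870, 2332, 2349 and 2305 were higher in these fits in order, beside 2727 in the main fit.

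Of the LPS-responsive genes, NDUFAF3 is shown with its upstream sequence as an example. Its call at 5% CO2 held in every alternative fit and a RefSeq entry exists for it. The same was true of NDUFV2, whose sequence is not shown. The stretch is chr3:49020235-49020451 (plus strand, GRCh38.p14), chosen as above, with a GC content of 56.2%. It holds none of the motifs searched, so no letters are in capitals.
NDUFAF3: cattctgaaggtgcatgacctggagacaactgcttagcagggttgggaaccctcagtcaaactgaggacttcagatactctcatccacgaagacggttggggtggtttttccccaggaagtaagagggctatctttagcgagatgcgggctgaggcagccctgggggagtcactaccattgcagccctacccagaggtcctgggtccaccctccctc

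Counts of genes with shared exons need care because the strand setting is not given in the sources used here. Of the NDUFAF3 exon bases, 21.7% lie opposite DALRD3. NDUFB8 shares 33.8% of its exon bases with a same-strand gene of 107 counts and 16.3% with HIF1AN on the opposite strand. NDUFV2 shares 28.4% with a same-strand gene that had 5 counts in all libraries. The pseudogene NDUFV2P1 had group sums of 139 and 131 counts without LPS and 166 and 172 with LPS, against 5088 counts of NDUFV2 over all libraries. With the 16 NDUF genes that share over 10% of their exon bases left out, 32 tested genes remained, of which 1 was higher for CO2 with LPS, 7 for CO2 on the average, 1 for LPS at 5% CO2 and 6 for LPS at 10% CO2. In that order these were 3.12%, 21.9%, 3.12% and 18.8%, where 4.29%, 8.06%, 11.8% and 16.6% of all genes were called higher. For LPS at 10% CO2, 1 of the 32 was lower (3.12%), where 18.6% of all genes were called lower.

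The difference between the LPS effects at the 2 CO2 levels passed the test for 0 of 47 NDUF genes in either direction, where 0.0244% of all genes were called higher and 0.0% lower. DESeq2 also called 0, beside 45 higher and 2 lower among all 16402 genes. An unadjusted p under 0.05 in edgeR was seen for 543 higher and 446 lower among all genes, and for 1 NDUF gene. That gene was NDUFV2, whose LPS effect was larger at 10% CO2 by 0.31 ± 0.13 on the log2 scale (edgeR adjusted p = 0.775, 95% interval 0.03 to 0.59). The median difference was -0.01, with 22 genes above 0 and 25 below. NDUFV2 and NDUFAF6 therefore had larger log2 changes with LPS at 10% CO2 than at 5% CO2, without a difference that passed the test.

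The CO2 effects with and without LPS come from separate libraries and could be set side by side gene by gene. Of 47 NDUF genes, 33 were above 0 in both, 5 below 0 in both and 9 opposite, so that 80.9% had the same sign, beside 69.6% of all genes tested. Pearson's r over these 47 genes was 0.54 and Spearman's rho 0.52, beside an r of 0.39 over all genes, as a description across genes that share libraries and depth. For the LPS effects at the 2 CO2 levels, 83.0% of NDUF genes and 81.0% of all genes had the same sign, with r of 0.74 and 0.91. NDUFA7, an N module subunit read at low depth (541 counts), was the gene farthest from equal CO2 effects, at 0.13 ± 0.25 without LPS and -0.35 ± 0.26 with LPS, and neither passed the test.

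**Figure D4:**
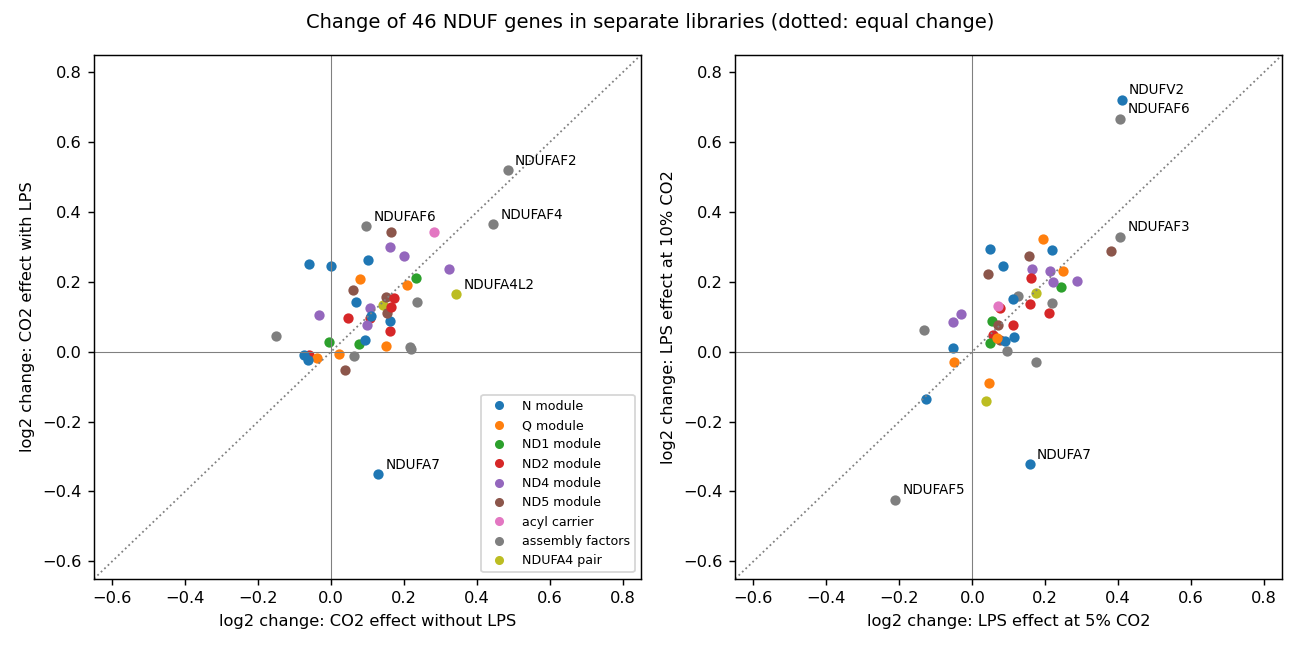
Log2 change of 46 NDUF genes for CO2 without against with LPS (left) and for LPS at 5% against 10% CO2 (right), with separate libraries on the 2 axes of each panel and a dotted line of equal change. NDUFAF2 and NDUFAF4 lie far right and up in the left panel, and NDUFV2 and NDUFAF6 in the right panel.

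Other proteins build complex I without an NDUF name, and 18 such genes were examined. On the average over LPS, 6 were higher at 10% CO2 (33.3%) and 1 lower (5.56%), with a median of 0.20. Of all genes tested, 8.06% were called higher and 8.69% lower. DMAC1, a factor for the distal membrane arm, rose by 0.45 ± 0.09 (adjusted p = 0.00224), TMEM126B rose by 0.28 ± 0.06 (adjusted p = 0.00796, or 0.0654 with GC correction), and OXA1L, the inner membrane insertase, fell by 0.24 (adjusted p = 0.00591). Without LPS 0 of 18 were called for CO2, where 0.799% of all genes were called higher and 0.665% lower. With LPS 2 were higher (11.1%), DMAC1 and TIMMDC1 (0.28 ± 0.09, adjusted p = 0.0479), and 1 lower (5.56%), beside 4.29% and 4.46% of all genes. The TIMMDC1 call was lost in 8 of the 12 fits that left out a library (adjusted p up to 0.194) and that of DMAC1 in 5 (up to 0.129), and with GC correction the adjusted p was 0.117 and 0.083. LPS at 5% CO2 raised 1 of 18 (5.56%), TMEM126A (0.37 ± 0.10, adjusted p = 0.00733), and lowered 3 (16.7%). Of all genes, 11.8% were called higher and 13.1% lower. With the length correction the adjusted p of TMEM126A was 0.0594. At 10% CO2, LPS raised 1 (5.56%) and lowered 3 (16.7%), beside 16.6% and 18.6% of all genes. The falls included TMEM186 at -0.67 ± 0.15 (adjusted p = 0.00134) and TMEM242 at -0.52 ± 0.11 (adjusted p = 0.00137).

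The 7 complex I subunits encoded by mitochondrial DNA all had log2 differences for CO2 above 0, with a median of 0.68 without LPS (0.05 to 0.95, 0 called) and 1.03 with LPS (0.16 to 1.30, 4 called higher). These 4 were 57.1% of the 7, where 4.29% of all genes were called higher with LPS and 0.799% without it. MT-ND5, a proton-channel subunit, had 833.6, 721.4 and 919.6 CPM at 5% CO2 with LPS and 1571, 2230 and 1363 CPM at 10% CO2 with LPS (log2 change 1.06 ± 0.20, adjusted p = 0.0125). Its groups were far apart, beside a median of 0.11 for the 47 nuclear genes in the same comparison. The MT-ND5 call was lost without replicate 1 or 2 of 5% CO2 with LPS (up to 0.0582). For LPS at 10% CO2, where 16.6% of all genes were called higher, MT-ND3 was the 1 of 7 called (14.3%), at 0.34 ± 0.11 (adjusted p = 0.0196). It was 0.15 (adjusted p = 0.428) with GC correction and 0.18 (adjusted p = 0.206) with length correction, and its call was also lost without replicate 1 of 10% CO2 or replicate 2 of 10% CO2 with LPS. The nuclear and mitochondrial sets were not tested against each other, and poly(A) selection captures mitochondrial RNAs to different degrees.

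Nuclear subunits of complexes II to V served as a comparison for the nuclear complex I genes. Of 40 such genes, 0 were called for CO2 without LPS, 2 were higher with LPS and 10 on the average, with medians of 0.12, 0.11 and 0.12. Of all genes tested, 0.799%, 4.29% and 8.06% were called higher in these comparisons. LPS raised 6 at 5% CO2 and 12 at 10% CO2, with medians of 0.16 and 0.17, beside 11.8% and 16.6% of all genes. The count lower was 0 in each, where 0.665%, 4.46%, 8.69%, 13.1% and 18.6% of all genes were called lower. These medians lie beside 0.11, 0.11, 0.12, 0.11 and 0.13 for the 47 NDUF genes in the same order, and the sets were not tested against each other.

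Regulators of nuclear respiratory genes were examined as a list of 8, of which PPARGC1A failed the filter. For CO2, 0 of the 7 tested were called with or without LPS, and on the average YY1 fell by 0.20 (adjusted p = 0.0449). That is 1 of 7 (14.3%), where 8.69% of all genes were called lower on the average. The YY1 call was lost in 9 of the 12 fits that left out a library, with adjusted p up to 0.136. PPARGC1B, a coactivator of mitochondrial biogenesis, fell with LPS, with log2 changes of -1.37 ± 0.19 at 5% CO2 (adjusted p = 3.39e-05) and -1.51 ± 0.19 at 10% CO2 (adjusted p = 7.23e-06). GABPB1, the partner of GABPA, rose by 0.40 ± 0.09 (adjusted p = 0.00171) and 0.45 ± 0.09 (adjusted p = 0.000404). ESRRA, an orphan nuclear receptor, fell with LPS at 10% CO2, with a log2 change of -0.44 ± 0.10 (adjusted p = 0.00129). Of the 7 regulators tested, LPS at 5% CO2 raised 1 and lowered 1 (14.3% each), beside 11.8% and 13.1% of all genes. At 10% CO2 it raised 2 and lowered 2 (28.6% each), beside 16.6% and 18.6% of all genes.

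Binding motifs of these regulators were looked for in the 42 NDUF promoters with a RefSeq entry, each 250 bases before to 50 bases after the start, on both strands. The other 6 genes had no entry. The NRF1 palindrome (the capitals of the NDUFA8, NDUFAF5 and NDUFB4 stretches printed next) occurred in 3 promoters (7.14%) and in 1.75% of 15843 protein-coding promoters. Its core GCATGCGC, which lies within the palindrome, occurred in 7 (16.7%) and in 4.26% of all. The YY1 letters AAGATGGCG occurred in 5 (11.9%) and in 2.74% of all, and CCGGAAG in 6 (14.3%) and in 14.2% of all. The ERR letters TCAAGGTCA and the NF-kappaB consensus occurred in 0 NDUF promoters, and in 0.24% and 0.189% of all. A match is a description of letters and not of binding. Of the 7 genes called higher for CO2 on the average that had an entry, 1 held the palindrome (NDUFA8), 3 the core, 1 the ETS letters and 0 the YY1 letters.

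The matches are shown in 24 bases each because their place relative to the start differs between the motifs. Capitals mark the palindrome in the NDUFA8 (chr9:122159767-122159790, minus strand), NDUFAF5 (chr20:13785017-13785040, plus strand) and NDUFB4 (chr3:120596170-120596193, plus strand) stretches, and the YY1 letters in the NDUFA6 (chr22:42090731-42090754, minus), NDUFA7 (chr19:8321345-8321368, minus), NDUFA9 (chr12:4649117-4649140, plus), NDUFS4 (chr5:53560653-53560676, plus) and NDUFS7 (chr19:1383917-1383940, plus) stretches.
NDUFA8: gccggatGCGCATGCGCaggcgcc
NDUFAF5: cgcgctgGCGCATGCGCacaaaaa
NDUFB4: gcacttcGCGCATGCGCatatcac
NDUFA6: ctttggcAAGATGGCGgggagcgg
NDUFA7: cggacggAAGATGGCGtccgccac
NDUFA9: gtgggaaAAGATGGCGgctgccgc
NDUFS4: ctgcagcAAGATGGCGgcggtgtc
NDUFS7: cgaggccAAGATGGCGgtgctgtc

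The palindrome began 4 bases before the start in NDUFA8 and NDUFAF5 and 159 bases before it in NDUFB4. The YY1 letters lay after the start in all 5 promoters, beginning 10 to 25 bases after the start base, each read in the direction of the gene. Of these 5 genes, NDUFA6 rose with LPS at 10% CO2 and the others were called in no comparison. Of the 3 genes with the palindrome, NDUFA8 rose with CO2 on the average and the others were called in no comparison.

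Of the 48 genes, 12 start within 1000 bases of a protein-coding neighbour read in the opposite direction. NDUFB5 and MRPL47, a mitochondrial ribosomal protein gene, start 36 bases apart, and NDUFS6 and MRPL36, another such gene, 34 bases apart. MRPL47 rose with LPS by 0.30 at 5% CO2 (adjusted p = 0.0357) and 0.28 at 10% CO2 (adjusted p = 0.0353), while NDUFB5 had log2 differences of 0.16 and 0.24 that did not pass the test. NDUFV3, an N module subunit, starts 76 bases from WDR4, a gene for a tRNA-modifying enzyme subunit. WDR4 rose with CO2 in cells with LPS by 0.51 (adjusted p = 0.0060), while NDUFV3 had a log2 difference of 0.10 in the same comparison (adjusted p = 0.534). The neighbours were found by position, and these were chosen for mention after their values were seen.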

How the data were processed

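Per the labels' protocols, RNA was poly(A)-selected and sequenced as paired-end reads. The authors deposited raw counts per Ensembl gene, 1 table for each of 12 libraries. Per the submitters' processing notes, the tools were Trimmomatic 0.36, STAR 2.5.2b and featureCounts (Subread 1.5.2), with the GRCh38 build. Strandedness, multi-mapping reads and the gene annotation's release: not given in the sources used here. Symbols from a reference table matched 98.1% of identifiers, which held 99.5% of counts. NDUF identifiers that are not protein-coding (67, with 1818 counts against 605237 of the members) were left out, and 0 value columns were left out.

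The test was run in edgeR 4.0.16 (R 4.3.3) after filterByExpr by group, with TMM scaling and the robust quasi-likelihood F test on 4 group means, with Benjamini-Hochberg adjustment over 16402 genes. A gene was called at an adjusted p under 0.05. The script was tested on simulated data. CPM are TMM-normalised, and log2 values carry the SE of the fit. Alternatives were DESeq2 1.42.0, RLE scaling, no low-count filter, the compared groups only, a replicate block, loess corrections (span 0.3) for GC content or exon length, and each library left out in turn. Leaving out NDUF genes with shared exons was added after seeing the data. Counts of 0 or few reads and their floor of 3 counts cover counting error only.

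Replicate numbers come from the sample titles. Deviations of same-numbered libraries had correlations of 0.25, 0.19 and 0.11 for LPS at 10% CO2 and 0.19, 0.02 and 0.12 for LPS at 5% CO2. For CO2 without and with LPS the correlations ran from -0.14 to 0.26. With the block, LPS at 10% CO2 gave 11 NDUF genes higher and 1 lower, beside 2980 and 3395 of all genes.

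Per-library values were given for called genes (at most 4 per direction and comparison by smallest p, or the 2 with the smallest p per direction where none was called) and for the genes highest and lowest per length. Outside that rule, they were also given for NDUFAB1 and NDUFAF4 for CO2 with LPS, near the threshold and not called, and for MT-ND5. Genes outside the set were limited to 3 per list and comparison, and promoter neighbours were named by position. The counts and medians cover all 47 tested members, of which 1 is not reported here by itself and is not drawn. The members and lists were chosen with earlier results of these data known. Sequences are those of RefSeq on GRCh38.p14 and were checked against the genome of the same build.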

Additional observations from a re-analysis of the deposited data

How the results depend on the processing

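Over the alternatives run, 57 gene-level differences and the median differences of the 5 comparisons between groups kept their direction. The median of the difference between the LPS effects, near 0 at -0.0085, changed sign: it was 0.0167 with GC correction, 0.016 with the block added, 0.0199 without genes sharing exons, and -0.0457 to 0.0711 over left-out libraries. Counts of NDUF genes called moved with the settings. For CO2 without LPS (0 higher), the count was 1 without the low-count filter or with DESeq2, 2 with the replicate block or the GC correction and 3 with both. Of all genes, 131 were higher in the main fit, and 323 (of 44077 tested), 290, 337, 525 and 1101 in these fits in order. For CO2 with LPS (2 higher), the NDUF count was 4 with RLE scaling, the compared groups only or the GC correction, and 5 with DESeq2, the block or the length correction. It was 7 with GC correction and block, and 1 without the filter or without genes sharing exons. Of all genes, 703 were higher in the main fit. In order from RLE scaling to no filter, they were 740, 829, 952, 928, 988, 930, 1486 and 700. For LPS at 5% CO2 (4 higher, 0 lower), GC correction and block gave 7 higher and 1 lower, and leaving out genes sharing exons gave 1 higher. Of all genes, 1940 were higher and 2152 lower in the main fit, and 2371 and 3392 with GC correction and block. For LPS at 10% CO2 (10 higher, 1 lower), the NDUF count was 4 higher without the filter and 6 with the length correction or without genes sharing exons. Of all genes, 2727 were higher in the main fit, 2425 without the filter and 2569 with the length correction. The NDUF count lower there was 0 with RLE scaling, DESeq2 or the compared groups only, 2 with GC correction and 3 with GC correction and block. Of all genes, 3046 were lower in the main fit, and 2854, 2816, 2811, 3662 and 4201 in these fits in order. For CO2 on the average (8 higher), the GC correction gave 14 and with the block 19. Of all genes, 1322 were higher in the main fit, 1853 with the GC correction and 2458 with the block added. Leaving out a library gave 0 to 1 for CO2 without LPS, 0 to 7 with LPS, 3 to 10 on the average, 2 to 6 for LPS at 5% CO2 and 4 to 10 higher with 0 to 1 lower at 10% CO2. The medians over the same fits ran from 0.07 to 0.17, 0.08 to 0.19, 0.10 to 0.15, 0.04 to 0.15 and 0.08 to 0.15 in that order. Counts over all genes moved with the left-out library too. For CO2 without LPS, 256 genes were higher without replicate 1 of 10% CO2 and 0 without its replicate 2. For CO2 with LPS, 869 were higher without replicate 3 of 10% CO2 and 150 without replicate 2 of 10% CO2 with LPS. The cause of these moves was not tested. The block gave 5 NDUF genes higher for LPS at 5% CO2, 11 at 10% CO2 and 9 for CO2 on the average, beside 2190, 2980 and 1643 of all genes.

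Depth limits NDUFAF5, NDUFA7 and NDUFC2-KCTD14, and with 3 libraries per group a common coefficient of variation of 10.7% limits small changes.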
